A study of Caenorhabditis elegans with 2 samples.

Results

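The regions described here are 1011 places on the autosomes of Caenorhabditis elegans, away from coding genes and their promoters, at which ChIP-seq of the nuclear hormone receptor NHR-84 gave high signal. They were selected on the signal value that the peak caller gave each region in the list made from both replicates pooled. The members are those of the 5000 highest of its 30000 regions that are not on X and whose summit lies outside every protein-coding gene body and outside every promoter window. A promoter window reaches 500 bp up and 100 bp down from a coding transcription start site (TSS). Of the other regions of ranks 1 to 5000, 2139 lay in an autosomal coding gene body, 1032 in an autosomal promoter window and 818 on X. A further 5191 pooled regions lay in the same kind of place but below rank 5000, and are called the lower regions.

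The chromatin came from whole L1 larvae of mixed sex and unknown age, of strain OP357, with the genotype unc-119(tm4063) III; wgIs357. Both replicates carry the unc-119 mutation and the transgene, from which NHR-84 is stably expressed with a GFP-FLAG tag at its C terminus. The labels do not name the promoter that drives it. There is 1 group with 2 biological replicates, so no condition was compared, and an untagged or control library was not analysed here. The antibody is labelled by its target, chromatin was sheared by sonication, and no cells were sorted, so a region bound in few cells and a region weakly bound in many cannot be told apart.

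Nuclear hormone receptors are transcription factors with a zinc-finger DNA-binding domain and, in most members, a ligand-binding domain. The worm genome holds a family of them far larger than that of mammals, and many act in metabolism, moulting or development. Most mapped transcription factor binding in worms lies close upstream of genes; sequence between genes also holds distal elements, genes for short RNAs such as spliced leader RNAs, snoRNAs and tRNAs, and pseudogenes. SL2, a spliced leader RNA encoded by the sls-2 genes, is joined to the 5′ ends of messages from downstream genes of operons.

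The sequences that follow are from 6 of the members of highest signal. They are shown because 3 of them lie at sls-2 genes and 3 do not. Each holds the summit and 50 bases on either side, read on the plus strand from the RefSeq genome of the assembly WBcel235, which is ce11. Capitals mark every match, on either strand, to 10 words searched. Nuclear receptors are known to read AGGTCA and, in some cases, AGTTCA. Forkhead factors read GTAAACA, basic leucine zipper factors TGACTCA, helix-loop-helix factors CACGTG and GATA factors GATAA. The other words are the repeat GAGAGA, the word GAGCGC, then CGCGCA, and lastly CCTGCG. The windows are chrII:5844859-5844959 for sls-2.1, chrIII:8658535-8658635 for F22B7.9, chrII:5543674-5543774 for sls-2.2, chrII:2974016-2974116 for nhr-88, chrII:12239504-12239604 for txdc-12.1 and chrII:5544250-5544350 for sls-2.3. A match is a description of the letters and not a binding site.
sls-2.1: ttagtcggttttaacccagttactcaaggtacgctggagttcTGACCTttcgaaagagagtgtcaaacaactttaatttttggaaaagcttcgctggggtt
F22B7.9: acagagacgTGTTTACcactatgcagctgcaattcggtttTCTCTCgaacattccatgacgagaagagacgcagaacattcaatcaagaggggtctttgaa
sls-2.2: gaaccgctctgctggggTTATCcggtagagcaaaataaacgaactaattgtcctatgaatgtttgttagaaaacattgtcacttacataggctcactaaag
nhr-88: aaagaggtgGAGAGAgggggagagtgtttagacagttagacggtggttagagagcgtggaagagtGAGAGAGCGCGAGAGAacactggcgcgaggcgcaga
txdc-12.1: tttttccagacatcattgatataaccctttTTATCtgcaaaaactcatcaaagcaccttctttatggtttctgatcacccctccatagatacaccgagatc
sls-2.3: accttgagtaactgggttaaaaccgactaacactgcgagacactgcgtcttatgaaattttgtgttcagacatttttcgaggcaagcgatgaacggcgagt

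The windows at sls-2.1 and sls-2.3 share a stretch of 30 bases, ttagtcggttttaacccagttactcaaggt, on opposite strands, at chrII:5844859-5844888 in the window of sls-2.1. It spans the annotated 5′ end of each gene and reaches the end of the window. The summit at sls-2.2 lies 17 bp past the 3′ end of its gene, and its window shares at most 9 bases in a row with that of sls-2.1. The window at nhr-88 has a GC content of 56.4% and holds GAGAGA at 3 places, one of which overlaps GAGCGC. In the window at sls-2.1 the 1 match is to AGGTCA, read on the minus strand, and the window at sls-2.3 holds none of the 10 words.

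The signal of the members had a median of 29.8 (range 26.1 to 98.3, quartiles 27.5 and 33.3), as chosen. The median was 29.2 for regions of ranks 1 to 5000 in coding gene bodies, 30.5 in promoter windows, 29.4 on X, and 19.4 for the lower regions. The signal has no stated scale and no counting error, since the lists hold no read counts. The q-value that the caller deposited with each region was under 0.05 for 5 members (0.495%) and under 0.5 for 18 (1.78%), against 0.56% and 2.74% of all regions of ranks 1 to 5000. The median q of the members was 0.870, and 908 of the 1011 (89.8%) had a q over 0.8. Over all regions of ranks 1 to 5000 the median q was also 0.870 and 89.7% had a q over 0.8, so a high q is no trait of the members. The lower regions had a median q of 0.794, so q did not rise steadily as signal fell.

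The place of the rank limit was not marked by a step in signal. The last member inside it was 1356 bp upstream of F13B12.1 (rank 4997, signal 26.1), and the first region of the same kind outside it was 1325 bp upstream of R05D3.9 (rank 5005, signal 26.04). At the promoter window the nearest member was 501 bp upstream of T04C12.11, with a signal of 34.5. A region 500 bp upstream of rab-5, a small GTPase gene of endosomes, was left out at a signal of 31.7. The summits of 78 members (7.72%) lay at most 152 bp beyond the upstream end of a promoter window, so that part of these 304 bp regions lay inside it.

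Of the 106 regions of the deposited IDR list, 12 were members. IDR stands for irreproducible discovery rate, a measure of how well the replicates' rankings match. The 106 regions were exactly pooled ranks 1 to 106. Being in the list is therefore the same as a high pooled signal, the value that selected the members. The 12 were 1.19% of the members (95% Wilson interval 0.680 to 2.06, which covers counting error over regions only), against 2.12% of all regions of ranks 1 to 5000. The share was 5.04% in promoter windows (52 regions), 0.935% in coding gene bodies (20) and 2.69% on X (22).

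The class made up a smaller share of the highest ranks than of the rest. Members were 11.3% of ranks 1 to 106 (Wilson interval 6.60 to 18.8), 22.8% of ranks 107 to 500 (19.0 to 27.2) and 20.8% of ranks 501 to 1000. The share was 21.3% in ranks 1001 to 2500 and 19.4% in ranks 2501 to 5000. Below the limit, regions of the same kind were 20.4% of ranks 5001 to 10000 and 20.9% of ranks 10001 to 30000. The interval of the first bin lay below those of ranks 107 to 500 and 1001 to 2500 and overlapped those of ranks 501 to 1000 and 2501 to 5000. With 12 members the first bin is the least precise.

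**Figure D1:**
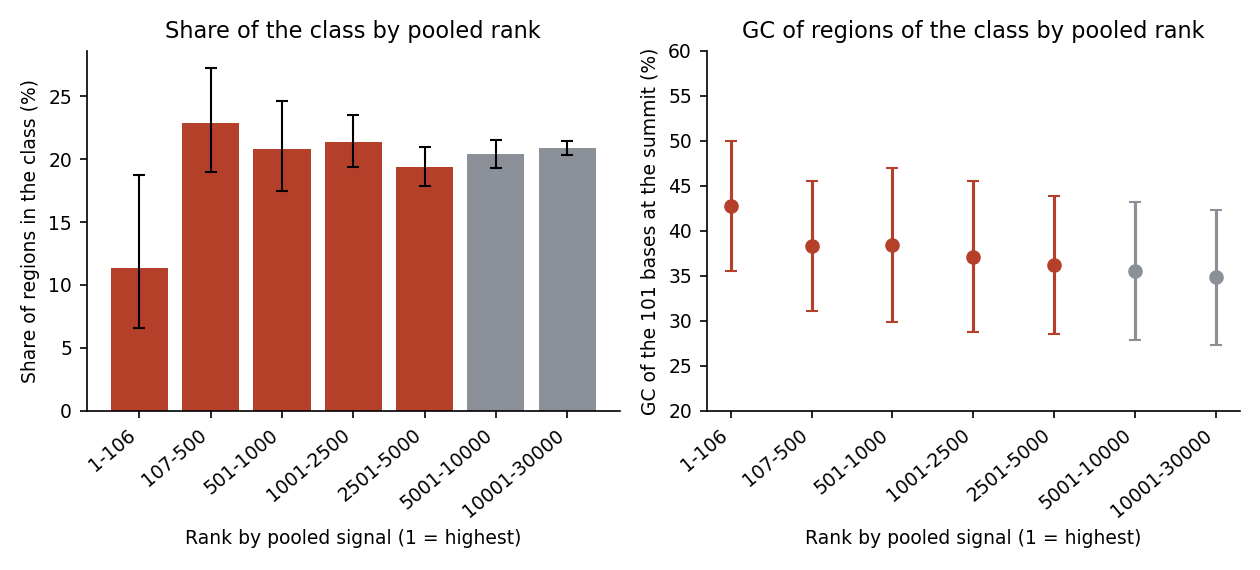
Left, the share of pooled regions that are autosomal, intergenic and off promoters in 7 bins of pooled rank, with 95% Wilson intervals. Right, the mean GC content within 50 bp of the summit of those regions, with the SD over regions. Bins of ranks 1 to 5000, the members, are red and lower bins grey; the share is 11.3% in the first bin and 19.4 to 22.8% in the others, and mean GC is 42.7% in the first bin and 34.9% in the last.

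Among the 12 members in the IDR list, 4 lay at sls-2 genes. The member of highest signal lay on sls-2.4 (chrI:4172148-4172451, 711 bp upstream of egg-5, a gene of egg activation), with a pooled signal of 98.3. Its own-list signal was 67.3 in replicate 1, where it ranked 4, and 38.05 in replicate 2, where it ranked 35. The member on sls-2.1 (chrII:5844757-5845060, pooled signal 89.3) had 34.6 in replicate 1 and 53.2 in replicate 2, ranks 49 and 10. Both replicates placed these regions high.

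The gap between C17C3.24 and ins-13, an insulin-like peptide gene, held a pair of members 576 bp apart at the neighbouring genes sls-2.2 and sls-2.3. The member at sls-2.2 (chrII:5543572-5543875, pooled signal 82.9) had 36.3 in replicate 1 and 42.7 in replicate 2, ranks 40 and 23. The member at sls-2.3 (chrII:5544148-5544451, pooled signal 58.6) had 17.2 in replicate 1, rank 2615, and 39.7 in replicate 2, rank 31. The first was thus high in both replicates and the second in replicate 2 only.

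Over the whole family, 4 of the 18 sls-2 genes annotated as snRNA had a member as their best pooled region within 200 bp, and 10 had no pooled region there. The next best were sls-2.15, inside a coding gene body, with a pooled signal of 37.9 (rank 540), and sls-2.9, with 26.03 at rank 5024, just below the limit. sls-2.9 had 22.8 in replicate 1 and 14.1 in replicate 2. sls-2.16 and sls-2.7 had pooled signals of 22.3 and 19.5. sls-2.16 had 22.7 in replicate 2, rank 449, and no region in replicate 1. Of the genes with no pooled region, sls-2.13 had one in replicate 1, and sls-2.5, sls-2.8 and sls-2.14 in replicate 2, at signals of 12.2 or less. The pooled signal was therefore uneven across the family, with 4 genes at 58.6 or more and the other 14 at 37.9 or less or with no pooled region.

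**Figure D2:**
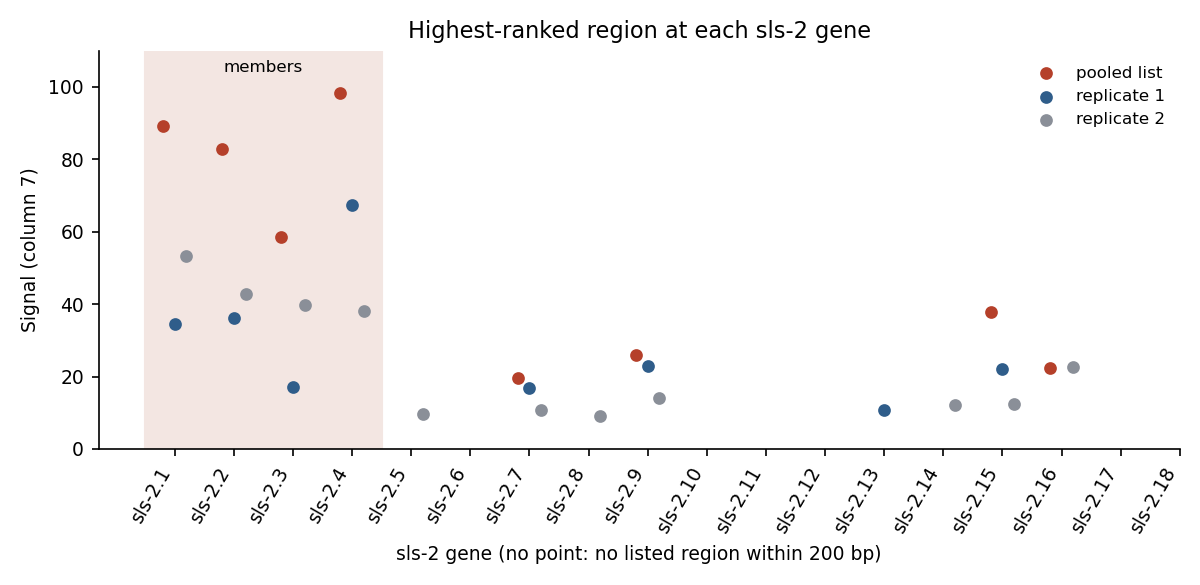
Signal of the highest-ranked region within 200 bp of each of the 18 sls-2 genes, in the pooled list, replicate 1 and replicate 2; each list has its own scale. A gene with no point in a colour has no region in that list. The 4 members stand at pooled signals of 58.6 to 98.3 and the other 4 genes with a pooled region at 19.5 to 37.9.

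Reads from near-identical gene copies can be placed on the wrong copy, and the labels and files do not say how such reads were placed. In the window at sls-2.1, 79.2% of the 25-base stretches occur more than once in the genome. The share was 23.4% in the window at sls-2.3 and 0% in those at sls-2.2 and sls-2.4. The value at sls-2.1 is therefore uncertain among the copies. This share was not counted at sls-2 genes with no pooled region, so the part of read placement in their lack of one was not tested.

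The other IDR members at short RNA genes lay near snoRNA genes. The member 43 bp from F59C6.15 and 765 bp upstream of F59C6.18 (chrI:10517041-10517344, pooled signal 61.5) ranked 21 in replicate 1 at a signal of 41.2, and had no replicate 2 summit within 100 bp. The nearest replicate 2 summit was 130 bp away, at rank 515 and a signal of 22.3. The member 138 bp from Y17G7B.25 (chrII:12042132-12042435, pooled signal 54.97, 626 bp upstream of ippk-1, which encodes an inositol phosphate kinase) ranked 221 in replicate 2 at 25.8. Its nearest replicate 1 summit was 133 bp away, at rank 112 and a signal of 28.9. Both thus had a summit in the other replicate that lay just beyond the 100 bp limit.

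The 6 IDR members away from short RNA genes included 1 between the 3′ ends of nlp-40 and rcor-1 (chrI:16901-17204), genes of a neuropeptide and of a corepressor. Its pooled signal was 90.3, with 36.1 in replicate 1 and 51.0 in replicate 2, ranks 41 and 14. The member between F22B7.9 and dpy-19, a gene of neuroblast migration, lay at chrIII:8658433-8658736 and had a pooled signal of 86.5, with 51.7 in replicate 1 and 38.4 in replicate 2, ranks 12 and 34. It lay 4660 bp from the nearest coding start, that of F22B7.9. This was the best-placed member by the lower of its replicate ranks.

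The member 2573 bp upstream of nhr-88 (chrII:2973914-2974217), which encodes another nuclear hormone receptor, had a pooled signal of 68.4, with 32.2 and 33.8 in replicates 1 and 2, ranks 63 and 60. It shared the 14755 bp gap between srw-60 and nhr-88 with 2 weaker members. The members upstream of txdc-12.1, which encodes a thioredoxin-domain protein, C05C10.3 and F37A8.5 had pooled signals of 59.0, 58.0 and 54.6. In replicate 1 these had 34.5, 29.5 and 29.3, and in replicate 2 they had 24.1, 29.1 and 22.5. All 3 ranked within 500 in both replicates.

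Most members had a region in each replicate's own list, but few were high in both. The pooled signal joins the replicates, so their values are not independent of the choice of members. A summit within 100 bp was found in replicate 1 for 818 members, in replicate 2 for 799, in both for 620 (61.3%) and in neither for 14. Over all regions of ranks 1 to 5000 the share found in both was also 61.3%, and it was 12.1% for the lower regions. Regions were in 1 replicate's list alone for 198 members (replicate 1) and 179 (replicate 2).

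There were 156 members among the 1000 highest regions of replicate 1 and 146 among those of replicate 2, but 22 (2.18%) in both sets, against 2.62% of all regions of ranks 1 to 5000. The share was 6.01% in promoter windows, 1.12% in coding gene bodies and 2.81% on X. A further 64 members were in the top 1000 of replicate 1 with no region within 100 bp in replicate 2, and 58 the other way round. Over the 620 members found in both, the signals of the replicates had a Spearman correlation of -0.155, a description over regions that share libraries and were selected on the pooled value. Counted the same way, it was -0.144 over all regions of ranks 1 to 5000 and -0.184 for the lower regions. In coding gene bodies it was -0.240, on X -0.167 and in promoter windows 0.0296, so a negative value is no trait of the members. A weak signal in a replicate cannot be told apart from a shallow library, since depth is unknown.

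**Figure D3:**
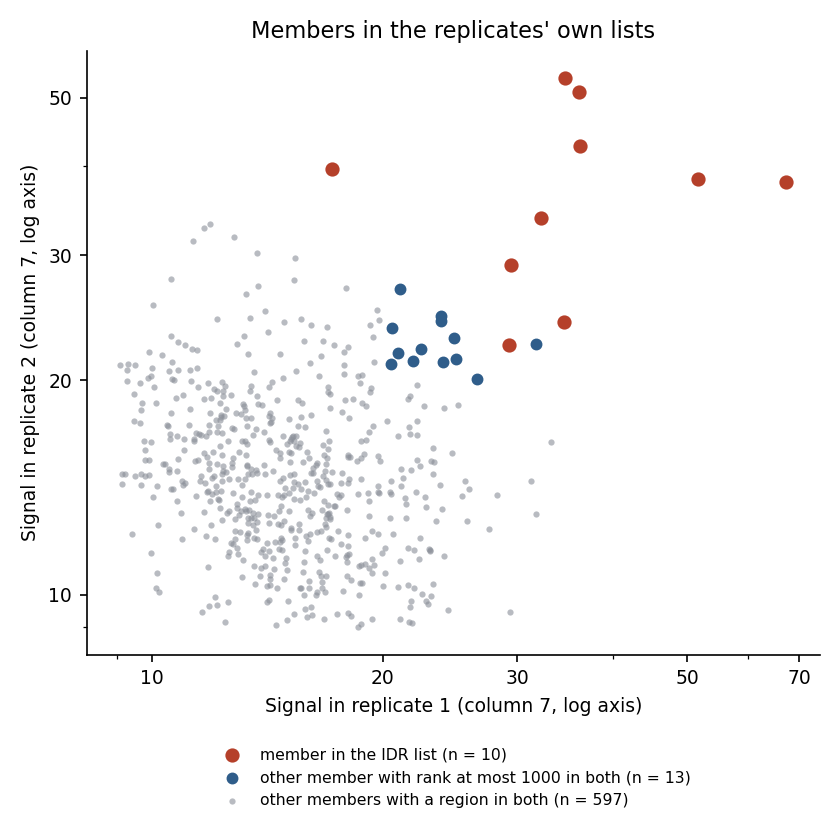
Signal of 620 members in replicate 1 (x) and replicate 2 (y), log axes, each on its own list's scale. Red marks the 10 members in the IDR list with a summit within 100 bp in both replicates, blue the 13 other members with rank at most 1000 in both, and grey the rest. Red and blue points lie toward the upper right. The Spearman correlation is -0.155 over all 620, and -0.144 over all regions of ranks 1 to 5000 found in both replicates.

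The 22 members high in both replicates had pooled signals of 43.1 or more (median 50.2), and 15 lay upstream of the nearest coding start. Of these, 9 are in the IDR list and 13 are not. Outside it, the best in both was 621 bp upstream of tag-340, on the noncoding RNA gene F26F4.14 (chrIII:4899735-4900038), with 23.9 in replicate 1 and 24.3 in replicate 2, ranks 315 and 308. The member 623 bp upstream of nud-1, a gene of nuclear movement, had 23.8 and 24.6, ranks 316 and 284. Both regions thus held similar ranks in the replicates.

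Others of the 13 lay near genes of varied function. The member 1536 bp upstream of the receptor gene nhr-157 (chrV:3870389-3870692, pooled signal 48.4) had 22.4 in replicate 1 and 22.1 in replicate 2. The member between 3′ ends near hif-1, the hypoxia-inducible factor gene, had a pooled signal of 48.1, with 24.0 and 21.2. The member 1292 bp upstream of bec-1, an autophagy gene, had a pooled signal of 46.4, with 21.9 in replicate 1 and 21.3 in replicate 2. Further members of the group lay nearest to F33E2.10, semo-1, trmt-10C.2, F07H5.13, R11F4.1, mks-2, a ciliary gene, and pde-2, a phosphodiesterase gene.

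Other members were strong in 1 replicate and had no summit of the other within 100 bp, which does not mean that the other replicate had no signal nearby. Of the 64 such members in the top 1000 of replicate 1, 19 had a replicate 2 summit within 200 bp, and of the 58 in the top 1000 of replicate 2, 18 had a replicate 1 summit within 200 bp. The member 1099 bp downstream of the start of T28B8.1 (pooled signal 51.3) ranked 38 in replicate 2 at 37.7, and the nearest replicate 1 summit was 203 bp away, at rank 403. The member 2254 bp downstream of the start of T05C7.4 (pooled signal 48.6) ranked 470 in replicate 1 at 22.5, and the nearest replicate 2 summit was 191 bp away, at rank 195. Both places thus held signal in each replicate, at summits set apart. Each also held another member, 211 and 207 bp away in that order, whose 304 bp region overlaps the first. The member 1777 bp upstream of mtrr-1, which encodes methionine synthase reductase, had a pooled signal of 46.9 and ranked 34 in replicate 1 at 37.1. Its nearest replicate 2 summit was 459 bp away, at rank 12793. The members nearest to R11A5.3 and srh-148 ranked 53 and 105 in replicate 1, with the nearest replicate 2 summits 2115 and 1591 bp away. At these 3 places no replicate 2 summit was close.

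Sequence that met the position rule covered 23.3 Mb of autosomal sequence, 28.2% of the autosomes, and held 43.4 members per Mb. The density was 53.5 on chromosome III, 49.2 on I, 45.9 on IV, 39.5 on II and 35.4 on V, from 178, 167, 267, 173 and 226 members. With each chromosome cut into 3 equal lengths, the outer ones, which are rich in repeats and young gene families, held 65.9% of the members (666), 66.3% of the lower regions and 68.9% of the bases. Members and lower regions were spread alike in that respect to within 1 percentage point.

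More of the members lay upstream than downstream of the nearest coding start, but so did most of the available sequence. Upstream were 776 members (76.8%), 72.3% of the lower regions and 69.2% of the bases. The median distance was 2001 bp for the members (range 376 to 22162) and 2047 bp for the lower regions. In density, the members numbered 50.9 per Mb from 500 to 1000 bp upstream, 49.7 from 1000 to 2000 bp, 47.8 from 2000 to 5000 bp and 40.5 beyond. Downstream of the nearest start they numbered 28.4 to 38.4 per Mb.

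**Figure D4:**
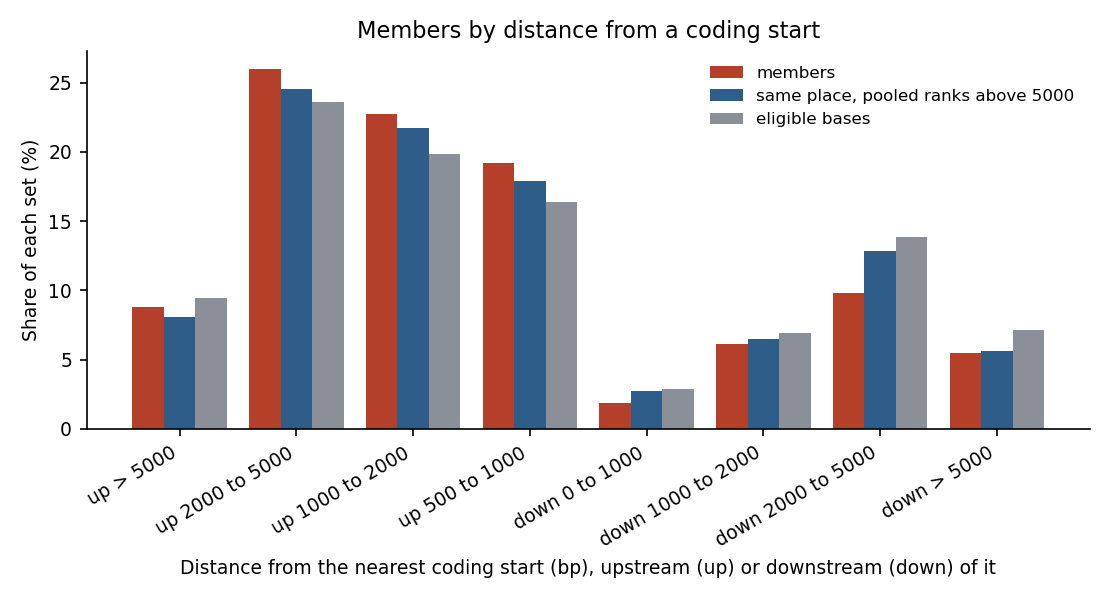
Share of members, of lower regions of the same kind of place and of eligible bases (y, percent of each set) by distance from the nearest coding start (x, bp, upstream to the left). Members exceed the bases in the 3 bins from 500 to 5000 bp upstream (19.2, 22.7 and 26.01% of members against 16.4, 19.8 and 23.6% of bases) and fall short of them in all 4 downstream bins.

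By the strands of the flanking coding genes, 97 members (9.59%) lay between genes whose 3′ ends face each other, against 11.3% of the lower regions and 14.8% of the bases. Between genes that point away from each other, where promoters face the gap from both sides, lay 346 members (34.2%), 32.8% of the lower regions and 30.8% of the bases. Between genes in tandem lay 567 (56.1%), 55.9% of the lower regions and 54.2% of the bases. The members nearest to nlp-40, ZK1248.17 and hif-1 belong to the first kind. No test of these differences was made.

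The farthest member (pooled signal 26.5) lay 22162 bp upstream of the nearest coding start, in a gap of 65018 bp. The gene hlh-32 flanks the other end of this gap, 42857 bp from the member. This member had no replicate 1 summit within 100 bp and 17.4 in replicate 2, rank 2320. Next was a member 17207 bp upstream of irld-18 (pooled signal 26.6), with a summit within 100 bp in replicate 2 alone, at 15.1. After these came a member 16239 bp downstream of the start of Y23H5B.5, with a pooled signal of 31.2 and 20.1 in replicate 1, and no replicate 2 summit within 100 bp. The signals of the farthest members thus lay on both sides of the median of all members.

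Members were also counted by genes of other kinds under the summit. On a pseudogene or noncoding RNA gene lay 121 members (11.97%), against 12.4% of the lower regions. Pseudogenes held 63 members (6.23%) and 8.94% of the lower regions, and genes of the class ncRNA held 39 (3.86%) and 1.68%. LincRNA genes held 7 members, piRNA genes 4, snRNA genes 3, tRNA genes 2, miRNA genes 2 and snoRNA genes 1. The total was like that of the lower regions while its parts differed in opposite directions.

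The pseudogene members of highest signal were 1655 bp upstream of sgn-1 (45.0) and near the chemoreceptor gene srh-148 (45.0). Both had a summit within 100 bp in replicate 1 alone. Their nearest replicate 2 summits lay 103 bp (rank 5208) and 1591 bp (rank 998) away, in that order. On linc-108, 2019 bp upstream of the acyl-CoA synthetase gene acs-2, lay a member with a pooled signal of 33.8, 14.8 in replicate 1 and 20.1 in replicate 2. On linc-136, near nrsn-1, lay one with 37.4 pooled, 15.2 and 12.4. The member on the miRNA gene mir-52 had a pooled signal of 32.3, with 12.2 in replicate 1 and 19.3 in replicate 2. None of these was high in both replicates.

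Within 200 bp of a short RNA gene lay 25 members (2.47%, Wilson interval 1.68 to 3.62), against 2.06% of all regions of ranks 1 to 5000. That share lies within the members' interval. It was 1.36% in promoter windows, 1.78% in coding gene bodies and 3.18% on X, and 0.925% for the lower regions. The 25 members were at 12 snoRNA, 7 snRNA and 6 tRNA genes. Of the 25, 6 are in the IDR list, which holds 12 members in all, and the other 19 had pooled signals from 26.4 to 46.3. The highest of the 19 lay on a tRNA gene upstream of pqn-71 (46.3), with 12.8 in replicate 1 and 31.8 in replicate 2, in sequence of which a typical 25-base stretch has 15 copies. The next lay 24 bp from the snRNA gene T11F9.15 and 562 bp upstream of snr-4, which encodes an Sm protein of the spliceosome, with 45.8 pooled, 21.7 and 19.0.

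Repeated sequence was rare. By the share of 25-base stretches found more than once in the genome, 10 members (0.989%) and 78 lower regions (1.503%) lay in repeats. Besides sls-2.1 they included the members on F54D8.7, a snRNA gene near cox-6A, on tRNA genes near pqn-71 and nfm-1, and near pot-3. Exact stretches of 20 bases joined 11 members into 9 pairs, of which sls-2.1 with sls-2.3 was the pair of highest signal.

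The GC content within 50 bp of the summit averaged 37.0 ± 7.99% for the members (SD over 1011 regions), 35.0 ± 7.54% for the lower regions and 34.3 ± 8.36% over all windows that met the position rule. By rank it averaged 42.7% in ranks 1 to 106, 38.3%, 38.4%, 37.1% and 36.2% in the next 4 bins, and 35.6% and 34.9% in the bins below rank 5000. Within the members, signal and GC content had a Spearman correlation of 0.114 over 1011 regions of shared libraries, given as a description. The mean GC was 38.5% in promoter windows, 38.7% in coding gene bodies and 37.8% on X. The part of base composition in the signal was not tested.

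Of the 10 words, GAGAGA had the widest gap between members and lower regions. It was within 50 bp of the summit of 112 members (11.1%, Wilson interval 9.29 to 13.2), 6.68% of the lower regions and 5.53% of all windows of that length that met the position rule. In the other classes of ranks 1 to 5000 it was at 11.2% in promoter windows, 8.04% in coding gene bodies and 6.97% on X. By rank it was at 25% of members of ranks 1 to 106 (3 of 12), 13.3%, 13.5% and 14.1% in the next 3 bins, and 7.84% of ranks 2501 to 5000. Of the 22 members high in both replicates, 4 held it, at nlp-40, F22B7.9, nhr-88 and F07H5.13.

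The nuclear receptor word AGGTCA was at 34 members (3.36%, 2.42 to 4.66), 2.68% of the lower regions and 2.70% of windows. AGTTCA was at 6.63% of the members, 6.32% of the lower regions and 7.01% of windows. For both words the lower regions' share lay within the members' interval. GATAA, the core read by GATA factors, was at 21.2% of the members, 22.1% of the lower regions and 20.7% of windows. The other 6 words were at 1.38 to 2.27% of the members. CACGTG was at 2.27% of the members, 1.73% of the lower regions and 1.40% of windows, and GTAAACA at 1.68, 1.29 and 1.30%. GAGCGC was at 1.78, 1.18 and 1.27%, and CGCGCA at 1.78, 1.43 and 1.43%. TGACTCA was at 1.38, 1.16 and 0.942%, and CCTGCG at 1.68, 1.23 and 0.983%. For GATAA and these 6 words too, the lower regions' share lay within the members' interval. Members, lower regions and windows also differed in GC content, as given above, and the part of that in these shares was not tested. The word that NHR-84 itself reads is not named in the labels or files.

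The 1011 members lay in 827 gaps between coding genes. There were 133 gaps with 2 or more members, together 316 of them, and 9 gaps with 4 or more. A neighbour within 1 kb was found for 98 members (9.69%), and the median distance to the next member was 18069 bp. This share depends on how densely the members lie. No background was set beside it, so whether members lie closer together than their density gives was not tested. The 98 include members whose 304 bp regions overlap, such as those nearest to T28B8.1. The gaps with the most members, 5 each, were chosen for description by that count after the values were seen.

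In the 6886 bp between sgn-1 and F07H5.13 on chromosome II, 5 members spanned 4653 bp, with pooled signals of 28.4 to 45.7. All 5 had a region in replicate 1, at ranks 68 to 18059, and 3 had one in replicate 2, at ranks 297 to 474. The strongest had 31.7 in replicate 1 and 22.5 in replicate 2, and holds GAGAGA. The 5 members between F45D3.1 and F45D3.2 on chromosome V ranked 219 to 20120 in replicate 1 and 409 to 10704 in replicate 2. In this gap the ranks in both replicates were thus spread widely. In the gap beside sgn-1 the replicate 2 ranks cover only the 3 members matched there. The nearest replicate 2 summits of the others lay 103 and 617 bp away, at ranks 5208 and 5567.

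The 35563 bp gap between irld-18 and dmd-6 held 5 members of pooled signal 26.3 to 32.3. Of these, 1 had a summit within 100 bp in replicate 1 and 5 in replicate 2. The gap between tin-9.1, a mitochondrial import gene, and the receptor gene nhr-105 held 4 members, of which 3 ranked 367 to 395 in replicate 1 while all 4 ranked 1839 to 15151 in replicate 2. The strongest of the 4, 2369 bp upstream of nhr-105, had a pooled signal of 45.2, with 23.3 in replicate 1 and 15.3 in replicate 2. In the first of these gaps, the nearest replicate 1 summits of the unmatched members lay 123, 2824, 429 and 203 bp away. Their ranks were 2101, 6133, 8848 and 22075. In the second gap, the 3 members matched in both replicates had their higher ranks in replicate 1. The remaining member ranked 1839 in replicate 2.

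The nhr-84 gene itself lies at chrV:15876732-15879608. Within 20 kb on either side lay 40 pooled regions, of which 22 had ranks of 5000 or less and 6 were members; an average autosomal stretch of that width, 42.9 kb, holds 12.9, 2.17 and 0.525. Centred on members, windows of this width held a median of 2 members and at most 9. The strain carries a transgene of nhr-84, and the labels do not say how many copies it holds or of which stretch. Its part in the count was not tested.

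The 6 members around nhr-84 were not high in both replicates. The member 1253 bp upstream of its start (pooled signal 41.4) had 29.2 in replicate 2, rank 117, and no replicate 1 summit within 100 bp; the nearest was 238 bp away, at rank 421 and a signal of 22.9. The member 1928 bp upstream (36.4) had 19.2 in replicate 1 and 16.9 in replicate 2. The strongest, 601 bp upstream of T06C12.9 (46.9), had 31.7 in replicate 1 and 12.96 in replicate 2. Members near str-56, cgt-1, a ceramide glucosyltransferase gene, and T06C12.12 had pooled signals of 31.9, 31.1 and 34.05. Of the 6, 2 ranked within 1000 in replicate 1, a different 2 in replicate 2, and none in both.

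**Figure D5:**
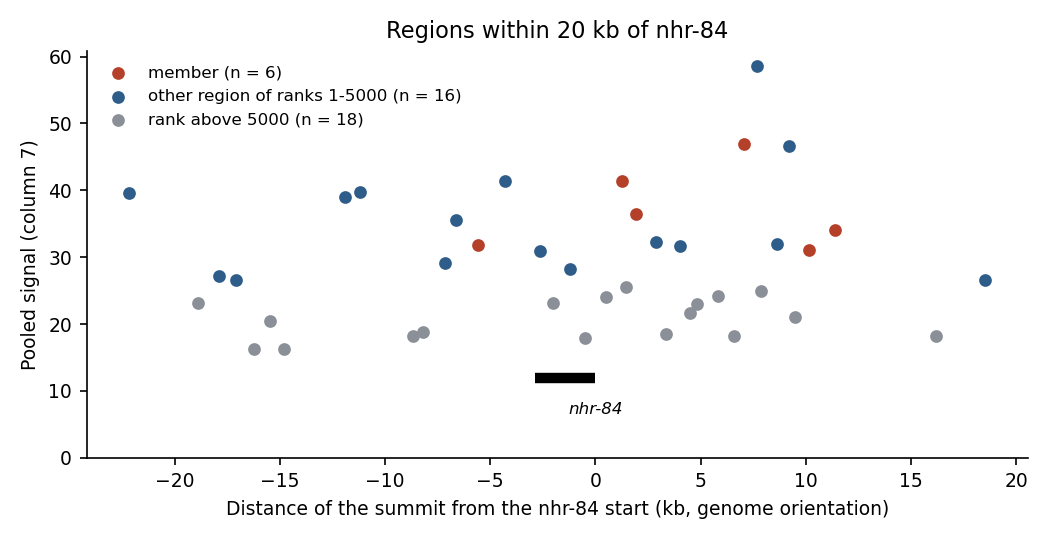
Pooled signal (y) of the 40 pooled regions within 20 kb of nhr-84 by distance of the summit from its start (x, kb, genome orientation; the gene, black bar, runs to the left). Red are the 6 members, blue the 16 other regions of ranks 1 to 5000 and grey the 18 of lower rank; members stand at 31.1 to 46.9, 5 of them on the upstream side, and the highest region of all is not a member.

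The genes nearest to members were counted in 19 lists, with the lower regions as the background, and 122 members (12.1%) were nearest to a gene of any list. Nuclear hormone receptor genes were nearest to 23 members at 17 genes, 2.27% of members against 2.35% of lower regions. The strongest were at nhr-88 (68.4), nhr-157 (48.4), nhr-105 (45.2) and nhr-20 (41.8), of which the first pair were high in both replicates. Genes of neuropeptides and insulin-like peptides were nearest to 16 members (1.58 against 1.31%), with 3 of the IDR members at nlp-40 and ins-13. Those at ins-13 lay 17 and 27 bp from sls-2.2 and sls-2.3. The one at nlp-40 lay between the 3′ ends of nlp-40 and rcor-1. At ins-37 a member had 39.7 pooled, 17.8 in replicate 1 and 21.96 in replicate 2.

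Genes of seven-transmembrane chemoreceptors, a large family expressed mostly in sensory neurons, were nearest to 32 members (3.17 against 5.84%). The strongest were at srh-148, sre-23, srh-55 and sri-5, with pooled signals of 45.0, 40.8, 37.5 and 36.5. Few members were nearest to the next groups. C-type lectin genes were nearest to 2 members (0.198 against 0.732%), at clec-187 and clec-239, ion channel genes to 2 (0.198 against 0.848%), at shl-1 and unc-49, and F-box and BTB/MATH genes to 7 (0.692 against 1.48%). Homeobox genes were nearest to 10 (0.989 against 1.14%), led by ceh-58 at 32.9, and cuticle collagen genes to 6 (0.593 against 0.848%), led by col-129 at 30.6. None of the members of these lists was high in both replicates.

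Genes of fatty acid metabolism were nearest to 8 members (0.791 against 0.462%), with acyl-CoA synthetase genes acs-4, acs-2 and acs-1 at 44.3, 33.8 and 29.8 and the carnitine palmitoyltransferase gene cpt-1 at 29.8. The acs-4 member, 2000 bp upstream, had 25.95 in replicate 1, rank 186, and 14.1 in replicate 2, rank 6888. Neuron marker genes were nearest to 6 (0.593 against 0.212%), among them snb-1 (synaptobrevin) at 39.3, unc-17 (the vesicular acetylcholine transporter) at 32.7, unc-104 (a kinesin) at 30.9 and unc-64 (syntaxin) at 29.2. Ribosomal protein genes were nearest to 4 (0.396 against 0.308%), led by rps-24 at 43.1. No member of the fatty acid, neuron marker or ribosomal protein lists was high in both replicates.

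Intestine marker genes were nearest to 2 members (0.198 against 0.135% of lower regions), at mtl-1 and cpr-1, and body wall muscle markers to 1 (0.0989 against 0.0385%), at unc-54. Hypodermis and seam, pharynx and germline markers were nearest to no member, and to 0.0771, 0.0963 and 0% of the lower regions. Core histone, cytochrome P450 and glutathione S-transferase or UDP-glucuronosyltransferase genes were nearest to 1 member each, at his-6, cyp-29A3 and gst-35, and to 0.0771, 0.366 and 0.212% of the lower regions. The nearest gene is a matter of position alone, and which gene a region acts on, if any, was not measured.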

How the data were processed

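ChIP-seq of tagged NHR-84 in L1 larvae was deposited as region lists for the assemblies ce11 and ce10. The authors made 1 list from each replicate, 1 from both pooled and 1 that passed IDR, per the deposited records; the control they name was not analysed here. Aligner, peak caller, IDR threshold: not given in the sources used. Signal, as deposited, is a value per region with no stated scale and was used only within 1 list. The −log10 of the q-value, also deposited, was turned into q. Lists hold no read counts, so depth is unknown. Each replicate list holds 30000 regions, ending at signals of 9.08 and 8.96, and the pooled list ends at 16.2, so they include background.

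Regions were annotated on ce11 with Ensembl 115, of the same assembly. Replicate regions were matched by summits within 100 bp. Shares, densities, words (within 50 bp of the summit) and repeats (50% or more of 25-base stretches present more than once) were counted with Python 3.11.15, numpy 2.4.6, scipy 1.17.1 and pandas 2.3.3, drawn with matplotlib 3.10.9, and checked on simulated data. No test between sets was made. The members, gene lists and words were chosen with earlier results of these data known. The rule for named genes took the 20 members of highest signal, every IDR member, the 10 best by their lower replicate rank, up to 4 per list by signal (not all are printed), and those at the limits. Others of those high in both replicates (1 of which is not reported here), members matched in a single replicate, at noncoding genes, in crowded gaps and near nhr-84, and the sls-2 family, were chosen after values were seen. Alternatives were other rank limits, promoter windows, summit distances, gene models, sequence windows, each replicate alone and leaving out short RNA genes or the nhr-84 locus.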

Additional observations from a re-analysis of the deposited data

How the results depend on the processing

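No paired analysis was possible because the series has 1 group. Of 80 alternatives over 13 results, 50 stayed close to the reported value (within 1.5 times for a count, within its 95% interval or the spread between replicates otherwise) and 30 moved. Some of the 50 could not move. The IDR list is pooled ranks 1 to 106, so rank limits of 1000 and 10000 keep its 12 members. Members high in both had pooled ranks of 270 or better, so ranks 1 to 1000 keep all 22. The count of 50 is therefore no measure of stability by itself. Restricting the ranks to 1 to 1000 left 206 members, with a median TSS distance of 1810 bp, GC of 38.6%, 1.94% in repeats, 60.7% in the outer parts of chromosomes and 80.6% found in both replicates. Extending them to 10000 gave 2030 members, GC of 36.3% and 13.1% within 1 kb of another. A promoter window of 1000 bp upstream left 6 IDR members and a median distance of 2469 bp. A window of 2000 bp upstream and 500 bp downstream left 568 members, 4 of them in the IDR list, at 3307 bp, with 15.3% between convergent genes, GC of 37.3%, 0.528% in repeats and 69.2% in outer parts. Outside gene bodies of every biotype, GC was 36.5%, 0.449% lay in repeats and 7.75% within 1 kb of another member. Leaving out short RNA genes left 6 IDR members.

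The rule on the list of replicate 2 and on that of replicate 1 gave, in that order, 1003 and 1041 members, 11 in the IDR list each time, median distances of 2053 and 1880 bp, GC of 36.9 and 36.7%, and 66.1 and 61.7% in outer parts. It gave 11.1 and 11.0% on noncoding genes, 10.5 and 9.41% between convergent genes, 1.30 and 0.576% in repeats and 8.57 and 8.93% within 1 kb. Summits within 50 or 200 bp put 45.5% or 76.4% of members in both replicates. Rank 5000 or better in both held 117 members, GC within 150 bp was 36.3%, and 72 members within 2000 bp of a TSS were nearest to a listed gene. On ce10 the IDR list held 117 regions, 14 of them members by chromosome and signal, the additional 2 nearest to T28B8.1 and F33E2.10. Of the 10 words, 9 were at a larger share of members than of lower regions, and 8 within 100 bp. Replicates have unknown depth, which limits every replicate value here.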
